A study of Mus musculus with 8 samples.

Results

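The genes described here are targets of the hypoxia response other than its classical glycolytic and angiogenic ones, with roles in glycogen and nucleotide metabolism, growth control, transcription, histone demethylation, protein folding, and iron and lipid handling. They were chosen by name from a list of 33 symbols, in which Ero1l and Ero1a stand for the same gene. The choice was made with earlier results of these data known. All 32 genes had at least 1 probe set that the platform annotation gives to that symbol alone, 76 of 45037 probe sets in all, and every probe set was kept. The arrays measured P8 (postnatal day 8) mouse retina on a mixed background, chiefly C57BL/6 and 129. The 4 Control samples carried Six3-Cre, which recombines in the developing neural retina. The 4 Z/Edn2 samples carried Six3-Cre together with the Cre-dependent transgene Z/Edn2, which encodes the secreted peptide endothelin 2. The Cre driver, which both groups shared, came from the fathers, and the Z/Edn2 allele was read from LacZ activity in tail clips. A sample was a pool from 2 to 3 pups, so the spread is that between pools.

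Hypoxia-inducible factors (HIF) are transcription factors whose alpha subunits are hydroxylated and degraded when oxygen is plentiful. When oxygen falls, the subunits persist, pair with ARNT and bind short hypoxia response elements near their targets. The retina of the young mouse is supplied by a vascular plexus that is still growing at this age, and its neurons and glia are known to use this pathway to call for vessels and to adapt their metabolism.

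The values are log2 signals after RMA, a method that corrects background, equalises quantiles and summarises the probes of a probe set. The medians of the 8 arrays lay between 6.14 and 6.27. Z/Edn2 3 had the highest median (6.27), the narrowest interquartile range (3.20 against 3.29 to 3.44) and, with limma's array weights, the lowest weight (0.462). The probe set of Edn2 itself had a mean log2 signal of 3.98 ± 0.125 in Control and of 4.16 ± 0.129 in Z/Edn2 (SD over 4 arrays), a difference that did not pass (limma adjusted p = 1.00), so it gave no check of the labels. The rod markers Nrl and Sag were bright, at Control means of 13.4 and 13.8. Among lists of cell type markers, all 7 measured ganglion cell genes and 6 of 8 endothelial genes had negative log2 fold changes, and 3 of 4 astrocyte genes positive ones. Negative too were all 5 rod genes, 6 of 7 Mueller glia genes and 6 of 8 microglia genes, and all 6 lens genes were positive. The 1 marker past the threshold was Tek, an endothelial receptor, which fell by 1.54 on the log2 scale (limma adjusted p = 0.00537). The summed signal of the ganglion cell genes was 5457 to 7354 in Control and 4214 to 4860 in Z/Edn2, and that of the astrocyte genes 666 to 896 and 916 to 1066. For the endothelial genes it was 1658 to 2226 and 1349 to 1728, and no marker was at 0 in any list. The part of these markers in the results below was not tested, and in whole retina fewer cells of a type and less RNA per cell cannot be told apart.

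Most hypoxia-inducible stress and metabolic genes had small positive log2 fold changes in Z/Edn2 retina, and few passed the test. Ak4, a mitochondrial adenylate kinase, rose 2.93-fold, and Stc2, the secreted glycoprotein stanniocalcin 2, rose 1.78-fold. None of the 76 probe sets was lower at a limma adjusted p under 0.05, while 14 had negative log2 fold changes. Ndrg1, a widely used marker of hypoxia, had log2 fold changes between −0.075 and 0.046 in its 5 probe sets. Because the members were chosen with earlier results of these data known, the shares that follow describe only these chosen genes. Of 76 probe sets, 2 (2.63%) were higher at a limma adjusted p under 0.05, where 0.0755% of all probe sets passed, 0.0600% higher and 0.0155% lower. After removal of group means, arrays with the same replicate number correlated at 0.166 to 0.784. Control 3 nevertheless correlated more with Z/Edn2 4 (0.347) than with Z/Edn2 3 (0.166). With the replicate number as a block 7 (9.21%) were higher, against 0.173% of all probe sets, and 0 were lower, against 0.0355%. These 7 belonged to 5 genes: Ak4, Stc2, Stc1, Selenbp1 and Ppp1r3c. An unadjusted p under 0.05 was reached by 25 probe sets (32.9%) of 16 genes, all of them higher, against 2.80% higher and 1.17% lower over all probe sets. In 14 probe sets (18.4%) of 9 genes the lowest Z/Edn2 array lay above the highest Control array, against 2.34% of all probe sets, and the opposite was seen in 0 members and 0.802% of all. The members had a median log2 fold change of 0.13 against 0.021 over all probe sets, and 62 of 76 were positive (81.6%, against 57.4%). In 36 (47.4%, against 11% of all probe sets) the Z/Edn2 array was the higher one in all 4 same-numbered pairs. The positive ones numbered 55 after the median of each array was subtracted, where 47.0% of all probe sets were positive, and the signs that turned belonged to log2 fold changes of at most 0.028 in size. Without Control 1, Control 2, Control 3, Control 4, Z/Edn2 3 or Z/Edn2 4, the count of 2 became 0. It was 1 without Z/Edn2 2 and 4 without Z/Edn2 1. The limma adjusted p rose to at most 0.163 for Ak4, without Control 4, and 0.120 for Stc2, without Control 3. The count with the block was 0 without replicate 2, 2 without replicate 1 or replicate 4, and 8 without replicate 3. The matching counts over all probe sets were 10 without replicate 2, 23 and 19 without replicates 1 and 4, and 85 without replicate 3.

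**Figure D1:**
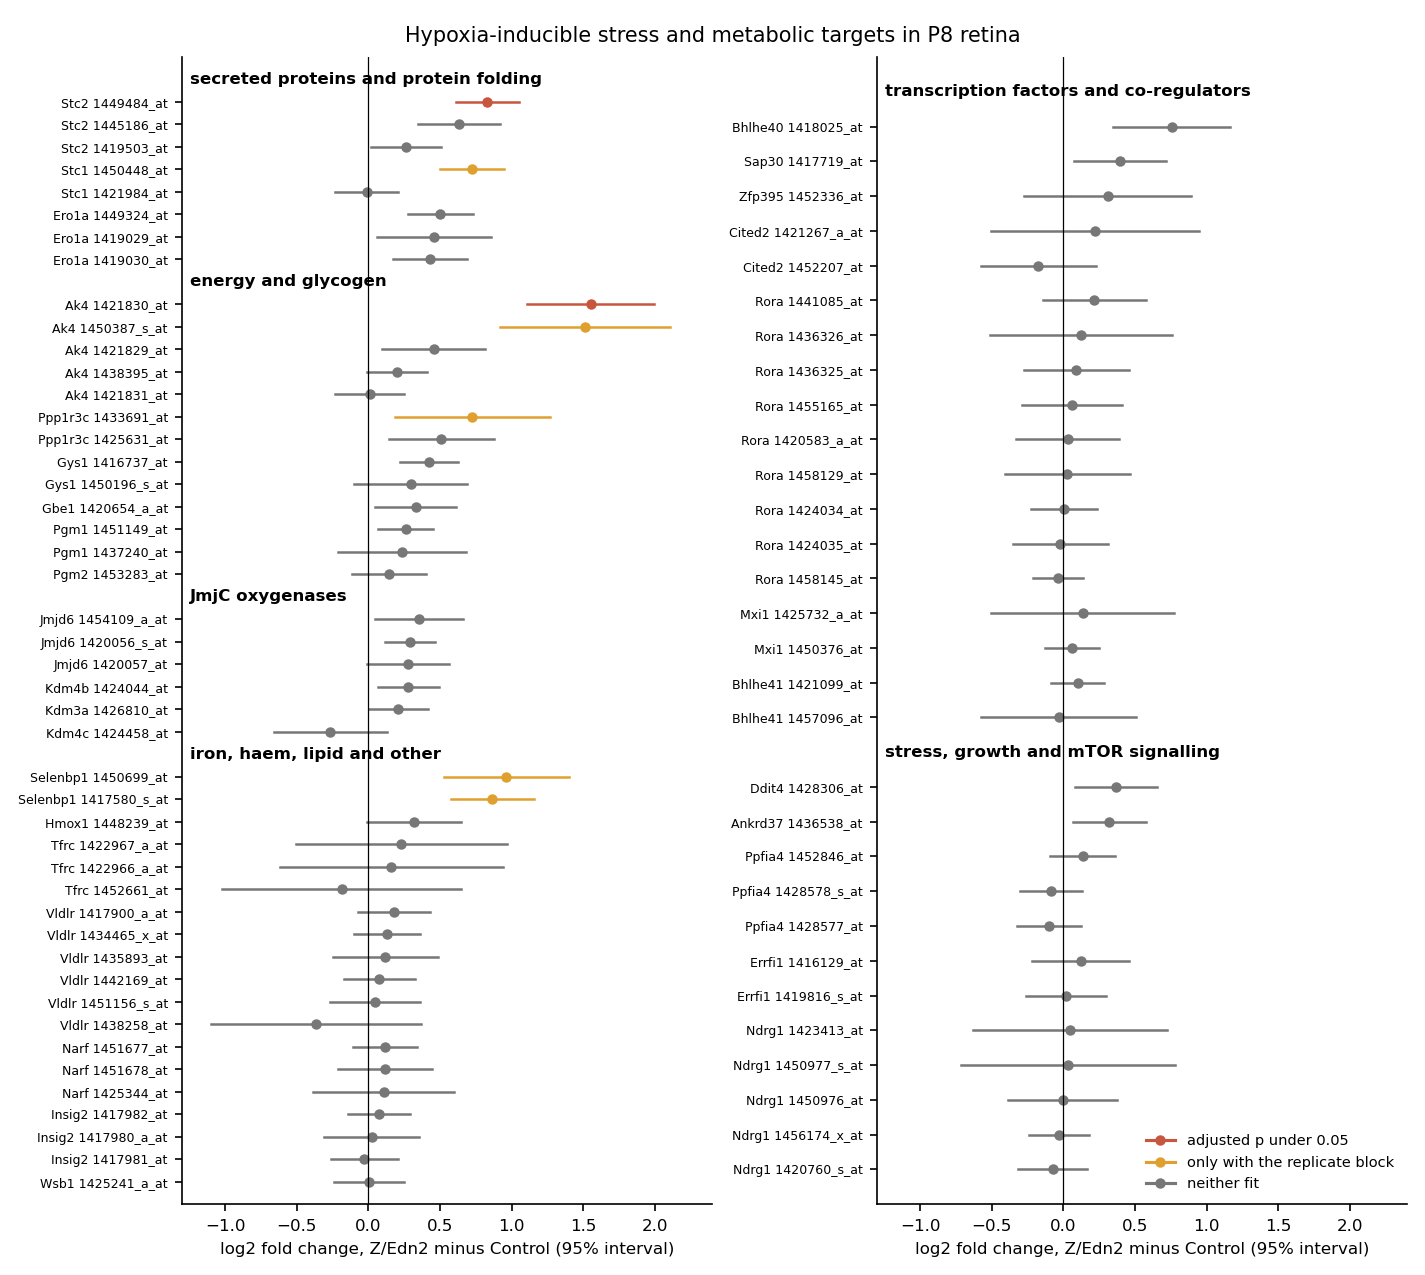
Log2 fold change (Z/Edn2 minus Control, x axis) of all 76 probe sets of the 32 genes, ordered by role, with 95% intervals from limma (n = 4 arrays a group). Red marks the 2 probe sets with adjusted p under 0.05, yellow the further 5 that passed only with the replicate block, and grey the rest, most of which lie a little right of 0.

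To set the measured responses beside the regulatory sequence, the promoters of 5 members were read from RefSeq (GRCm38.p6, 250 bases before to 50 after each annotated start). The core of the hypoxia response element was searched as ACGTG and GCGTG on both strands. ACGTG on both strands at once is CACGTG, the E-box that factors such as Bhlhe40 bind, and then counts as 2 matches. The first 4 genes passed with the replicate block, and Wsb1 is shown beside them because it had 6 matches, as many as any member, and a log2 fold change of only 0.0028. Capitals mark the matches, each stretch runs 5′ to 3′ along the gene and ends before the annotated start, and 20 bases flank the outer matches where the window allows.
Ak4 (chr4:101419195-101419277, plus strand): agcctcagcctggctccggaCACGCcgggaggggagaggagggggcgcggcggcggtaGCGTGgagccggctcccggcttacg
Ppp1r3c (chr19:36736683-36736845, minus strand): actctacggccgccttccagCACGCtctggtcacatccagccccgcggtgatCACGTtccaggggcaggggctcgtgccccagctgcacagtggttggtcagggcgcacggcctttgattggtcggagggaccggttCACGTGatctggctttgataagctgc
Stc2 (chr11:31370268-31370311, minus strand): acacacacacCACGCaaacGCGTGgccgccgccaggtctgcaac
Selenbp1 (chr3:94932859-94932930, plus strand): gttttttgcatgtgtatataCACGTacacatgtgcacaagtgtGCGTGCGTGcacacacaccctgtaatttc
Wsb1 (chr11:79254745-79254934, minus strand): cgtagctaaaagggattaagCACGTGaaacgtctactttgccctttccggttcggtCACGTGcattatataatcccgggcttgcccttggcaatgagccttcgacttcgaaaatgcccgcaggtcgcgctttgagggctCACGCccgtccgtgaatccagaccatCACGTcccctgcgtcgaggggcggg
Stc2 and Ak4 had 2 matches each in the window shown, Selenbp1 3 and Ppp1r3c 4. A promoter entry existed for 26 of the 32 members, and 23 of these (88.5%) held a match in at least 1 window, where members had 41 windows. The share was 59.3% over the 14453 genes named on the array that have an entry and 46.7% over all 27025 genes of the table. Counted by window, 70.7% of the members' windows and 54.6% of those of genes named on the array held a match. The members' windows were also richer in G and C, with a median of 61.3% against 58.7% for genes named on the array. The pair CG, which both searched cores contain, occurred a median of 21.8 times against 17.0. The part of base composition in the share with a match was not tested. The 3 members with no match, Gbe1, Gys1 and Vldlr, had log2 fold changes of 0.33, 0.42 and 0.13 in their brightest probe sets. Members with matches ranged from Kdm4c, with up to 6 matches in a window and a log2 fold change of −0.27, to Ak4.

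Genes of energy and glycogen metabolism had positive log2 fold changes in all 13 probe sets of 6 genes, with a median of 0.33. Of these 1 passed, 3 passed with the replicate block and 8 had an unadjusted p under 0.05. Over all probe sets, 0.0600%, 0.173% and 2.80% were higher by these rules. Ak4 belongs to the adenylate kinases, which balance adenine nucleotides, and was read by 5 probe sets. Probe set 1421830_at was at 5.86, 6.45, 6.31 and 5.82 on Control arrays 1 to 4 and at 7.23, 8.07, 7.66 and 7.69 on Z/Edn2 arrays 1 to 4 (log2 signal). The groups did not overlap, and replicate 2 was highest in both. Its log2 fold change was 1.55 ± 0.196 (SE, limma adjusted p = 0.0329, and 0.00233 when blocked by replicate). Probe set 1450387_s_at was brighter, at 6.79, 7.66, 7.55 and 7.15 in Control and 8.05, 9.19, 9.0 and 8.96 in Z/Edn2. It also separated the groups and was lowest in replicate 1 of both. The log2 fold change was 1.52 ± 0.265 (adjusted p = 0.153, or 0.00233 with the block). The other Ak4 probe sets were at log2 fold changes of 0.46 (1421829_at), 0.20 (1438395_at) and 0.0081 (1421831_at). The log2 difference between 1421830_at and 1421831_at was larger in Z/Edn2 by 1.54, in 4 of 4 same-numbered pairs. This was past the exact permutation threshold before adjustment (p = 0.0286, the smallest that 4 against 4 arrays allow). It was not past it after adjustment over 6 such comparisons (adjusted p = 0.0571), where a single comparison at that p cannot pass. Probe set 1421830_at entered the comparison because it was called in these data, which favours a difference.

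Ppp1r3c, a subunit that brings protein phosphatase to glycogen and so favours glycogen synthesis, was read by 2 probe sets. Probe set 1433691_at was at 6.75, 7.66, 7.52 and 7.14 in Control and at 7.42, 8.35, 8.26 and 7.95 in Z/Edn2. The groups overlapped, with replicate 1 low and replicate 2 high in both, while the 4 pair differences lay between 0.67 and 0.80. The log2 fold change of 0.72 ± 0.242 did not pass (limma adjusted p = 1.00), and it did with the replicate block (SE 0.0735, adjusted p = 0.0144). The other probe set, 1425631_at, was at 0.51 with overlap (adjusted p = 1.00, or 0.300 with the block), and its pair differences spread from 0.15 to 0.76. Gys1, the glycogen synthase of tissues other than liver, was at 7.10, 7.08, 7.16 and 6.99 in Control and 7.43, 7.43, 7.70 and 7.46 in Z/Edn2 for probe set 1416737_at, with no overlap. This log2 difference of 0.42 ± 0.0905 did not pass (adjusted p = 0.350, and 0.157 when blocked). Gbe1, the glycogen branching enzyme, had a log2 fold change of 0.33, and Pgm1, the phosphoglucomutase that links glycogen to glycolysis, 0.26 and 0.23 in its 2 probe sets. Pgm2, a related mutase, was at 0.14, with a 95% interval of −0.12 to 0.40. Gbe1 minus Gys1 differed by −0.095 between the groups (exact permutation p = 0.600) and Pgm1 minus Pgm2 by 0.12 (p = 0.286). Of the 40 probe sets of 22 further glycogen genes, such as those of phosphorylases, phosphorylase kinase and other targeting subunits, 0 passed with or without the block. An unadjusted p under 0.05 was reached by 1, where 2.80% of all probe sets were higher and 1.17% lower. The median log2 fold change of these 40 was −0.0042. The probe set with the smallest p belonged to Ppp1r3b, another targeting subunit, at 0.60 (adjusted p = 0.774), followed by Pygb and Pygl, the brain and liver glycogen phosphorylases, at −0.23 and 0.41.

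Secreted proteins and the folding enzyme Ero1a had the highest median of the 6 roles, 0.48 over 8 probe sets, of which 1 passed, 2 passed with the block and 7 had an unadjusted p under 0.05. The shares of all probe sets that were higher by these rules were 0.0600%, 0.173% and 2.80%. Stc2 probe set 1449484_at was at 4.27, 4.27, 4.22 and 4.35 in Control and 5.17, 4.92, 5.03 and 5.31 in Z/Edn2. All 4 Z/Edn2 arrays were higher, from a Control level that 21.2% of probe sets lay at or below. The log2 fold change was 0.83 ± 0.0983 (limma adjusted p = 0.0248, or 0.0130 with the block). The other Stc2 probe sets also had no overlap, with log2 fold changes of 0.63 (1445186_at, adjusted p = 0.271) and 0.26 (1419503_at, adjusted p = 1.00). Stc1, the related stanniocalcin first known from fish as a regulator of calcium, missed the threshold without the block. Probe set 1450448_at was at 5.99, 6.25, 6.03 and 6.07 in Control and 6.84, 6.88, 6.92 and 6.59 in Z/Edn2, again with no overlap. Its log2 fold change was 0.72 ± 0.101 (adjusted p = 0.0513, or 0.0329 with the block). The other Stc1 probe set, 1421984_at, was flat at −0.012, with a 95% interval of −0.23 to 0.21. Stc1 minus Stc2, by their brightest probe sets, was 0.46 higher in Z/Edn2 (exact permutation p = 0.0286, adjusted p = 0.0857 over 6 pairs of members). That direction depended on the Stc2 probe set, since the difference in log2 fold change was 0.091 with 1445186_at and −0.11 with 1449484_at. Ero1a, the oxidase that supplies disulfide bonds in the endoplasmic reticulum, had 3 probe sets at log2 fold changes of 0.50, 0.43 and 0.46. The brightest, 1449324_at, was at 8.03, 8.33, 8.26 and 8.14 in Control and 8.5, 8.79, 8.68 and 8.78 in Z/Edn2, with no overlap and an adjusted p of 0.286 by limma, or 0.0750 with the block. The log2 fold changes of the 3 probe sets differed by only 0.0735, less than the SE of any of them (0.102 or more).

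**Figure D2:**
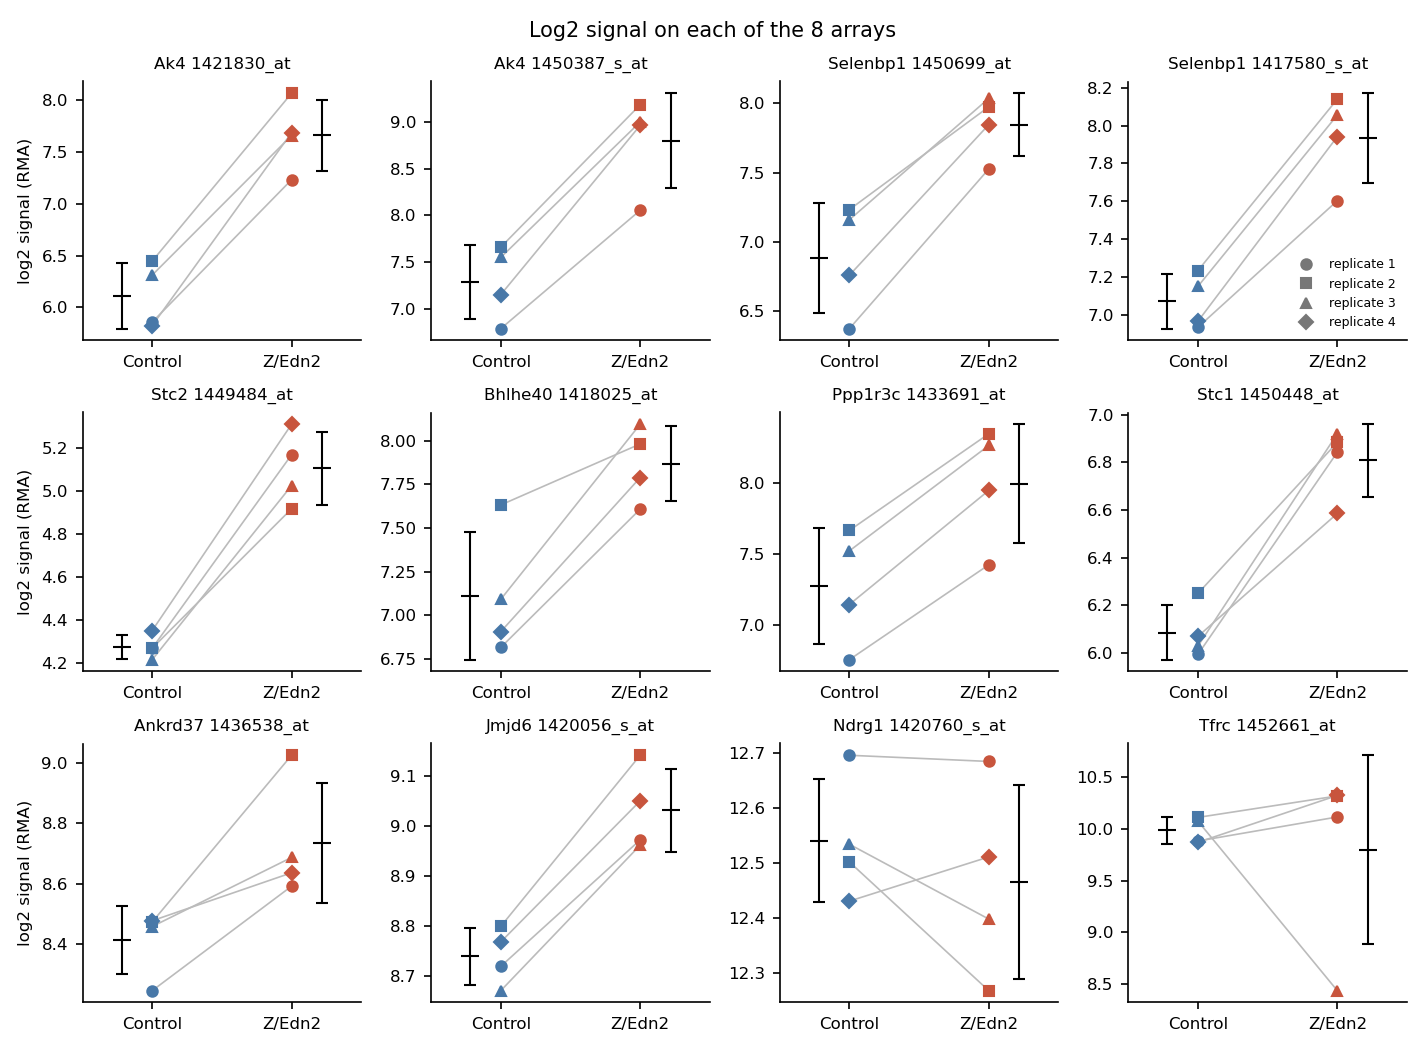
Log2 signal on each of the 8 arrays for the probe sets described in full, and for the brightest probe sets of Ndrg1 and Tfrc. Grey lines join arrays of the same replicate number (marker shape), and bars give the mean ± SD of 4 arrays. The y axes differ between panels and do not start at 0. In the Ak4, Selenbp1, Stc1 and Stc2 panels all Z/Edn2 arrays lie above all Control arrays, in the Ppp1r3c panel the 4 lines run nearly parallel, and in the Tfrc panel only Z/Edn2 3 lies low.

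Among iron, haem, lipid and other targets, 2 of 19 probe sets passed with the block and 0 without, and both were of Selenbp1, a selenium-binding protein known from humans as a methanethiol oxidase. With the block, 0.173% of all probe sets were higher. Probe set 1417580_s_at was at 6.93, 7.23, 7.15 and 6.97 in Control and 7.60, 8.14, 8.06 and 7.94 in Z/Edn2. Probe set 1450699_at was at 6.37, 7.23, 7.16 and 6.76 in Control and 7.53, 7.97, 8.03 and 7.85 in Z/Edn2. Neither overlapped between the groups. The log2 fold changes were 0.86 ± 0.129 (limma adjusted p = 0.0658, or 0.0112 with the block) and 0.96 ± 0.194 (adjusted p = 0.276, or 0.0112 with the block). The transcript that the platform table names for 1417580_s_at belongs to Selenbp2 in RefSeq, and its suffix marks probes shared by several transcripts, so this signal may hold both genes. Hmox1, haem oxygenase, had a log2 fold change of 0.32 with an interval of −0.013 to 0.65. It was at 5.51 to 5.80 in Control and at 6.04, 6.04, 5.59 and 6.33 in Z/Edn2, so Z/Edn2 3 alone lay within the Control range. Without Z/Edn2 3 the log2 fold change was 0.45 ± 0.109 (limma adjusted p = 0.720), and without Z/Edn2 4 it was 0.21. Tfrc, the transferrin receptor that brings iron into cells, had values of both signs in its 3 probe sets, at log2 fold changes of −0.19, 0.16 and 0.23. The brightest, 1452661_at, was at 9.88, 10.1, 10.1 and 9.87 in Control and 10.1, 10.3, 8.44 and 10.3 in Z/Edn2. Its sign turned without Z/Edn2 3, to 0.27 ± 0.0997 (unadjusted p = 0.0270, adjusted p = 1.00). The other Tfrc probe sets, 1422966_a_at and 1422967_a_at, turned the other way without Z/Edn2 1, both to −0.12. Of the 76 member probe sets, 15 changed sign without Z/Edn2 1, 8 without Z/Edn2 3 and 4 without Control 2. Negative ones numbered 14 with all 8 arrays, 25 without Z/Edn2 1 and 12 without Z/Edn2 3. Vldlr, the very low density lipoprotein receptor, had 6 probe sets between −0.37 and 0.18. The lowest, 1438258_at, was at 7.95 on Z/Edn2 3 and at 9.32 to 9.62 on the other Z/Edn2 arrays, and its log2 fold change without Z/Edn2 3 was 0.021. Wsb1, a ubiquitin ligase subunit, was at 0.0028 (95% interval −0.24 to 0.25) and Insig2, which retains the sterol sensor Scap in the endoplasmic reticulum, between −0.028 and 0.074. Narf, a protein that binds prelamin, lay between 0.11 and 0.12 in 3 probe sets. Of 21 NRF2 target probe sets, a list set beside Hmox1, 0 passed and 0 had an unadjusted p under 0.05, with Slc7a11, Srxn1 and Gclc at 0.23, 0.20 and −0.20. At an unadjusted p under 0.05, 2.80% of all probe sets were higher and 1.17% lower. Of 20 probe sets of iron handling genes 0 passed and 1 had an unadjusted p under 0.05. It was a probe set of Slc40a1, the iron exporter, at −0.47 (adjusted p = 0.828, limma), with a second at −0.58 (adjusted p = 1.00), while Hamp, the iron hormone hepcidin, was at 0.20. Of 17 probe sets of cholesterol sensing genes, set beside Insig2, 0 passed and 2 had an unadjusted p under 0.05, with a median of 0.16 and with Lss, Idi1 and Hmgcs1, enzymes of sterol synthesis, at 0.26, 0.35 and 0.16.

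**Figure D3:**
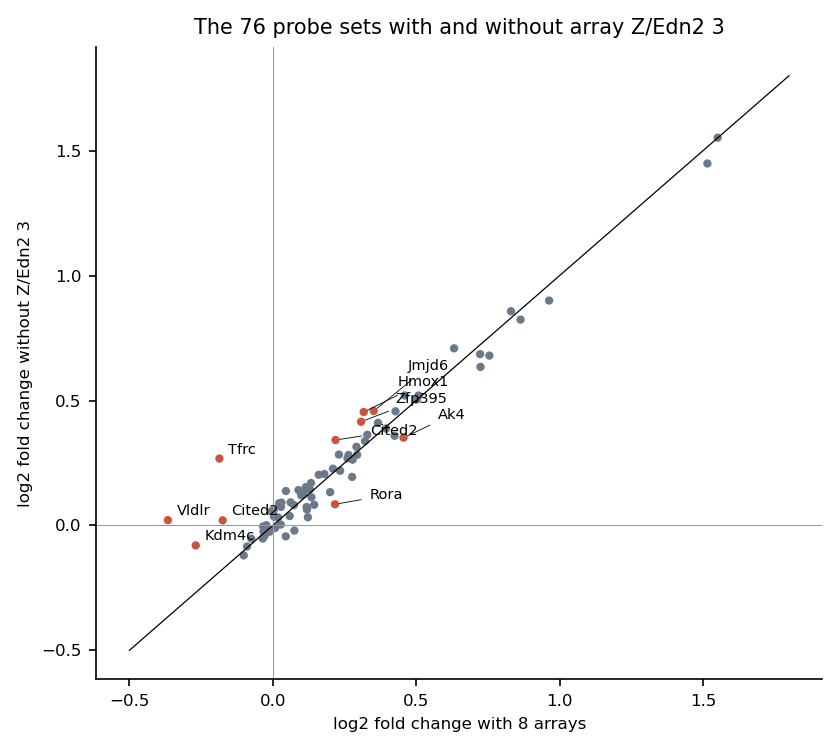
Log2 fold change of the 76 probe sets with all 8 arrays (x axis) and without Z/Edn2 3 (y axis), with the line of equality. Red points, named by gene, are the 10 that shifted by more than 0.1, and the 4 lowest points on the x axis, 1 each of Vldlr, Kdm4c, Tfrc and Cited2, are among them.

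The enzymes with a JmjC domain, which use oxygen directly, gave small positive values in 3 of 4 genes. Jmjd6, which hydroxylates lysines of splicing factors, had 3 probe sets at log2 fold changes of 0.29, 0.35 and 0.28. Probe set 1420056_s_at was at 8.72, 8.80, 8.67 and 8.77 in Control and 8.97, 9.14, 8.96 and 9.05 in Z/Edn2, with no overlap (0.29 ± 0.0784, limma adjusted p = 0.755, or 0.359 with the block). Kdm3a and Kdm4b, histone demethylases, were at 0.21 ± 0.0904 and 0.28 ± 0.0947 (unadjusted p = 0.0441 and 0.0155, limma). Both were higher in 4 of 4 same-numbered pairs, with 95% intervals of 0.0068 to 0.41 and 0.066 to 0.49. Kdm4c, a relative of Kdm4b, was at 9.39, 9.72, 9.59 and 9.49 in Control and 9.37, 9.55, 8.72 and 9.5 in Z/Edn2. Its log2 fold change was −0.27, and −0.080 without Z/Edn2 3, the array that lay lowest. Kdm3a minus Kdm4c was 0.48 higher in Z/Edn2 (exact permutation p = 0.0286, adjusted p = 0.0857), and 0.31 without Z/Edn2 3 (p = 0.0571). Kdm3a minus Kdm4b differed by −0.069 (exact permutation p = 0.629).

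Of the transcription factors and co-regulators, 0 of 18 probe sets of 7 genes passed with or without the block and 2 had an unadjusted p under 0.05. Over all probe sets, 2.80% were higher and 1.17% lower at that unadjusted p. Bhlhe40, an E-box repressor tied to the clock and to hypoxia, was at 6.82, 7.63, 7.09 and 6.91 in Control and 7.61, 7.98, 8.09 and 7.79 in Z/Edn2. Control 2 lay just above the lowest Z/Edn2 array, Z/Edn2 1, and the other Control arrays lay below all of them. The log2 fold change was 0.76 ± 0.181 (limma adjusted p = 0.576, or 0.0683 with the block). Its relative Bhlhe41 was dim, at Control means of 5.03 and 5.09 in its 2 probe sets, with log2 fold changes of 0.099 (1421099_at) and −0.034 (1457096_at). Bhlhe40 minus Bhlhe41, by 1421099_at, the brighter over all 8 arrays, was 0.66 higher in Z/Edn2 (exact permutation p = 0.0571, adjusted p = 0.114). Sap30, a subunit of a histone deacetylase complex, had a log2 fold change of 0.40 (unadjusted p = 0.0204, limma). Mxi1, an antagonist of Myc, was at 0.062 and 0.13. Its brighter probe set, 1450376_at, had a 95% interval of −0.13 to 0.25. Rora, a nuclear receptor of the clock and of cone and cerebellar development, lay between −0.035 and 0.22 in 9 probe sets, and its brightest had an interval of −0.22 to 0.23. Cited2, which competes with HIF for a coactivator, had probe sets at −0.17 and 0.22. The lower value became 0.020 without Z/Edn2 3, and the higher one became −0.076 without Z/Edn2 1. Zfp395, a zinc finger protein, was at 0.31 with a wide interval of −0.28 to 0.89. Of 35 clock gene probe sets, listed beside Bhlhe40, Bhlhe41 and Rora, 0 passed and 1 had an unadjusted p under 0.05, that of Ciart, a clock repressor, at 0.38 (limma adjusted p = 0.242). The clock output factors Nfil3 and Tef were at 0.15 and −0.19.

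Ndrg1 was the brightest member, and none of its 5 probe sets passed with or without the block. The log2 signal of 1420760_s_at was 12.7, 12.5, 12.5 and 12.4 in Control and 12.7, 12.3, 12.4 and 12.5 in Z/Edn2, a Control level that 99.7% of probe sets lay at or below. The groups overlapped throughout. The log2 fold change was −0.075, with a 95% interval of −0.31 to 0.16, and the 5 probe sets lay between −0.075 and 0.046. The intervals of 1423413_at and 1450977_s_at were wider, at −0.63 to 0.73 and −0.72 to 0.78. Probe sets 1423413_at and 1450977_s_at were about 1 log2 unit higher on replicate 1 of both groups (11.8 and 11.9 on Control 1, 12 on Z/Edn2 1 for both) than on the other arrays. For 1450977_s_at the log2 fold change was 0.30 without Control 1 and −0.28 without Z/Edn2 1. Each of these omissions keeps the high replicate 1 in only 1 group. The differences of its same-numbered pairs lay between −0.16 and 0.21, and its blocked log2 fold change was 0.030 ± 0.0905 (SE). Ddit4, the inhibitor of mTOR signalling also called Redd1, was at 9.72, 9.46, 9.29 and 9.59 in Control and 10.1, 10, 9.75 and 9.66 in Z/Edn2, with overlap. Its log2 fold change was 0.37 ± 0.128 (limma adjusted p = 1.00, unadjusted p = 0.0179). Ankrd37, an ankyrin repeat protein known as a HIF target from human cells, was at 8.25, 8.47, 8.46 and 8.48 in Control and 8.59, 9.03, 8.69 and 8.64 in Z/Edn2, with no overlap. The difference was 0.32 ± 0.113 on the log2 scale (adjusted p = 1.00, or 0.427 with the block). Errfi1, a feedback inhibitor of the EGF receptor, was at 0.12 and 0.019, and Ppfia4, a liprin of synapses, between −0.10 and 0.13 in 3 probe sets. The 49 probe sets of ATF4 and unfolded protein genes, a list set beside Ddit4, Stc2 and Ero1a, had a median of −0.00061. Of these 1 rose, where 0.0600% of all probe sets did. It was that of Vegfa, the vascular growth factor, which the list of other hypoxia targets also holds (0.97, limma adjusted p = 0.0462). Atf3, a stress factor, had the next smallest p, at 0.31. Of the 30 glucocorticoid target probe sets, a list set beside Ddit4 and Errfi1, 0 passed and 1 had an unadjusted p under 0.05, that of Cdkn1a, a cell cycle inhibitor, at 0.24, with Klf9 at 0.17 and Nfkbia at −0.50. At that unadjusted p, 2.80% of all probe sets were higher and 1.17% lower.

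By unadjusted p, 16 of the 32 genes had no higher probe set and 16 had one, against 871 of all 18193 genes. The 16 without one were Bhlhe41, Cited2, Errfi1, Hmox1, Insig2, Kdm4c, Mxi1, Narf, Ndrg1, Pgm2, Ppfia4, Rora, Tfrc, Vldlr, Wsb1 and Zfp395. With the replicate block Hmox1, Vldlr and Zfp395 also had one (limma unadjusted p = 0.0485, 0.0484 and 0.0408). The blocked count over all genes was not taken, so these additions cannot be read as a result about the members. At an adjusted p under 0.05 the block raised the share of all probe sets that were higher from 0.0600% to 0.173%. A p above the threshold does not show an equal level, so the width of the intervals in the fit without the block was examined. In 7 genes the 95% interval of every probe set lay within 0.5 of 0 on the log2 scale (1.41-fold). They were Errfi1, Insig2, Pgm2, Ppfia4 and Wsb1, and also Kdm3a and Kdm4b, whose intervals excluded 0. For Ndrg1, Mxi1, Rora, Vldlr, Narf and Bhlhe41 this held for the brightest probe set but not for every other. For Tfrc, Cited2, Kdm4c, Hmox1 and Zfp395 the interval of the brightest probe set was wider than that bound on at least 1 side. A change of that size cannot be told from none in this fit. With the replicate block the SE of each of these probe sets was smaller. It went from 0.179 to 0.121 for Cited2, from 0.260 to 0.126 for Zfp395 and from 0.372 to 0.311 for Tfrc. The SE of Ndrg1 1450977_s_at went from 0.333 to 0.0905. Intervals with the block were not computed, so the bound was not tested in that fit.

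The members were set beside other genes of the same pathway. Of 82 probe sets of 40 other hypoxia targets, 13 were higher at a limma adjusted p under 0.05, 23 with the block and 0 lower, with a median log2 fold change of 0.53 against 0.13 for the members. Over all probe sets 0.0600% were higher, and 0.173% with the block. Both lists were chosen with earlier results of these data known, so the gap between their medians describes only these chosen genes. The 13 belonged to 9 genes, among them Adm, the vasodilator adrenomedullin, at 2.44 and 2.26, Ndufa4l2, a mitochondrial protein, at 2.34, and Bnip3, a protein of mitophagy, at 1.40. Pfkfb3, an activator of glycolysis, was at 1.14, Pdk1, a kinase that restrains mitochondrial pyruvate oxidation, at 1.14, 1.08 and 0.78, and Egln3, an oxygen-sensing hydroxylase, at 1.53. Plod2, a collagen lysyl hydroxylase, was at 0.91 and 0.85, and Anxa2, a membrane-binding annexin, at 0.77. Vegfa, named above, was the last of the 9. Ak4, at 1.55, lay between Bnip3 and Adm on this scale. Of 39 probe sets of the HIF machinery itself, 1 rose, that of Egln3, which both lists hold, and the median was 0.017. Egln1, the main oxygen-sensing hydroxylase, was at 0.39 (adjusted p = 0.459). The difference between the lists was not tested.

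**Figure D4:**
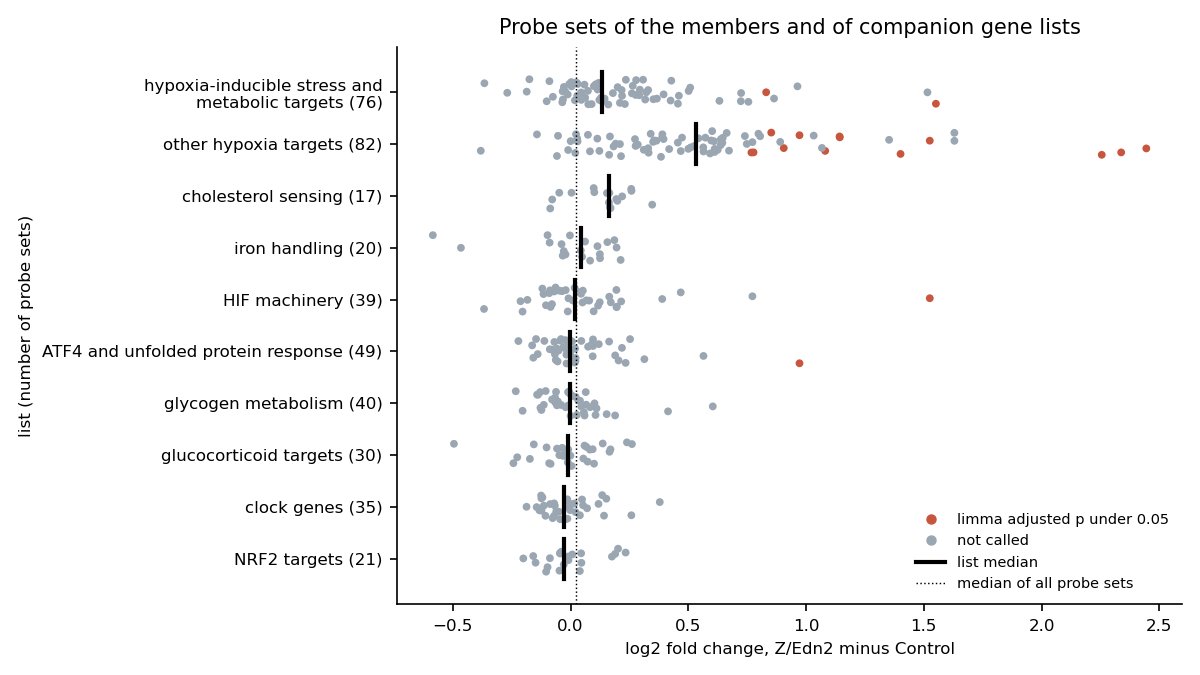
Log2 fold change (Z/Edn2 minus Control) of each probe set of the members and of 9 companion lists, 1 row a list, with the number of probe sets in brackets. Red points have a limma adjusted p under 0.05, black bars are list medians (0.13 for the members, 0.53 for other hypoxia targets) and the dotted line is the median of all probe sets (0.021). The lists were chosen with earlier results of these data known.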

How the data were processed

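Each deposited value is the log2 signal of a probe set of an Affymetrix mouse array, summarised by the authors with RMA, per the submitters' processing notes; no version or genome build is given in the sources used here. The authors also deposited, per the file headers, a comparison with p-values of an unnamed test, log2 ratios and a signed fold change, a score below 0 where Z/Edn2 was lower. These log2 ratios equalled Z/Edn2 minus Control of the value table within 4.93e-08. The deposited values were used without further scaling.

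Of 45101 probe sets, 64 array controls were left out. Of the 45037 fitted, 34945 had 1 symbol, 932 several and 9160 none. limma 3.58.1 in R 4.3.3 fitted all of them on the log2 scale (lmFit, then eBayes, two-sided), and p-values were adjusted over the whole table by Benjamini-Hochberg, with a threshold of 0.05. Dim probe sets were kept, and the number of arrays limits the precision. Nothing says whether pools came from separate litters, so p-values measure the spread between these 8 pools. All 32 members were found in RefSeq (GRCm38.p6) by gene identifier. Differences between probe sets or genes were taken per array and compared by two-sided exact permutation tests, adjusted over 6 comparisons in each family, with the brightest probe set of a gene taken by its mean over all 8 arrays. Within a gene, a called probe set was set against each uncalled one, a choice that favours a difference. In either family a single comparison at the smallest possible p cannot pass the adjustment. The fit was checked on simulated data.

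Groups share replicate numbers. After removal of group means, same-numbered arrays correlated at 0.784, 0.401, 0.166 and 0.307, all above 0.1, so the blocked fit is given where it changes a call. Control 3 correlated more with Z/Edn2 4 (0.347) and Z/Edn2 2 (0.169) than with its own number. The members and lists were chosen with earlier results of these data known. Named in full were member probe sets past the threshold in either fit and the one with the smallest p of each role. Of other lists, genes past the threshold and up to 3 probe sets with the smallest p were named, and further members with values were singled out after their values were seen. Alternatives covered moderation, weights, scaling, dim probe sets, 1 value a gene, the authors' p-values and left-out arrays.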

Additional observations from a re-analysis of the deposited data

Results flagged for a closer look

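Of 152 sets of 4 arrays (76 probe sets in 2 groups), 11 had an array whose gap to the nearest other, as a share of the range, was above Dixon's 95% critical value, and chance gives about 1 in 20. Of these, 3 were on Z/Edn2 3: Tfrc 1452661_at at 8.44 against 10.1 to 10.3 on the other Z/Edn2 arrays, Cited2 1452207_at at 9.98 against 10.7 to 10.8, and Gys1 1416737_at at 7.70 against 7.43 to 7.46. On Z/Edn2 1 there were 4, namely Ndrg1 1423413_at at 12 and Ndrg1 1450977_s_at at 12, each against 10.7 to 10.9, Narf 1451678_at at 9.71 against 9.25 to 9.28, and Stc2 1419503_at at 6.39 against 5.99 to 6.05. On Control 1 there were 3, namely the same probe sets of Ndrg1 at 11.8 (1423413_at) and 11.9 (1450977_s_at) against 10.7 to 10.9, and Ankrd37 1436538_at at 8.25 against 8.46 to 8.48. The last was Ppfia4 1428577_at on Control 4, at 6.27 against 6.57 to 6.63.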

How the results depend on the processing

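No member probe set was called lower in any of the 27 alternatives. The count of 2 higher member probe sets (2 genes) was 5 (4 genes) with array weights, 7 (5 genes) with the replicate block, 0 with the authors' deposited p-values adjusted here (limma's unadjusted p under 0.05 gave 25) and 1 without Control 1, Z/Edn2 1 and Z/Edn2 3 together. Over omissions of 1 array or 1 pair it ran from 0 to 4 probe sets (0 to 3 genes), where fewer arrays enter. With the block and 1 pair left out, a setting chosen after the data were seen, it ran from 0 to 8 (0 to 5 genes), with 0 without replicate 2. The cause of these moves was not tested. The median log2 fold change of 0.13 became 0.26 with 1 probe set a gene, by the brightest or the mean, where each gene counts once, and ran from 0.12 to 0.20 over left-out arrays. Higher counts over all 45037 probe sets were 27, or 56 with array weights, 78 with the block, 3 with the authors' p-values and 13, 9, 12, 10, 32, 15, 12 and 9 without Control 1 to 4 and Z/Edn2 1 to 4. Lower ones were 7, or 11, 16 and 0 in the first 3 of these. Ak4 1421830_at kept a log2 fold change of 1.42 to 1.69 (adjusted p 0.00148 to 0.630) and Stc2 1449484_at one of 0.76 to 0.89 (0.0130 to 0.388). Stc2 1449484_at lost its call with repeated quantile normalization (0.0698) and was not tested once dim probe sets were left out, where the 2 calls were Ak4 1421830_at (0.0372) and Stc1 1450448_at (0.0492), and Stc1 passed in 7 other alternatives too, quantile normalization (0.0416) among them. The exact tests called 0 of 6 differences between probe sets of 1 gene, or 4 without Z/Edn2 1 or Z/Edn2 2, and 0 of 6 between related members in every setting, 0 also for the replicate block by sign flips over 4 pairs, whose smallest p is 0.125.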
